A study of Equus caballus with 4 samples.

Results

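Imprinted growth genes are genes that mammals express mainly from the copy inherited from 1 parent and that act on growth of the embryo, placenta, muscle or fat. The 10 genes described here are PEG3, MEST, DLK1, PLAGL1, NDN, GRB10, PEG10, NNAT, MAGEL2 and DCN. They were found on a horse array as the gene probes whose name in the scanner files was exactly 1 of these symbols. This gave 7 genes with 15 probes, among 14449 gene symbols on the array. PEG3 and NDN were present under LOC names and were found through their RefSeq gene IDs, with 1 probe each, and they are described beside the others. MAGEL2 had no probe by symbol, gene ID or accession and was not analysed here.

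The cultures were satellite cells of the horse, the stem cells from which muscle fibres form, taken from m. semitendinosus and grown to day 3 of differentiation. Treated cells received gamma-oryzanol (GO, a rice bran mixture of sterol ferulates) at 0.125 µM over 24 h, with hydrogen peroxide (H2O2) at 3 mM during the final 1 h. The control was kept without GO. Whether it received H2O2 is not said in the labels, although the study's text treats it as exposed. The methods describe a single primary line chosen for its viability and fusion. The 4 replicates are then cultures and not animals, and p-values measure only the spread between them. On each of 4 arrays of 1 slide the treated RNA was labelled with Cy5 and the control RNA with Cy3, and dyes were never swapped, so dye and treatment cannot be told apart. The 4 array descriptions all name the control as its replicate 1, whereas the design text counts 4 controls, so a shared control RNA cannot be told apart from separate ones here. The comparison addressed how transcript levels differ when GO precedes and accompanies H2O2. The number of arrays limits the precision.

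In most mammals imprinted genes lie in clusters in which DNA methylation, laid down in the egg or the sperm, silences the copy from 1 parent. Paternally expressed genes such as PEG3, PLAGL1, MEST, DLK1, NDN and PEG10 are high in many fetal tissues and fall after birth, and GRB10 is maternally expressed in many tissues. Several of them are known in muscle precursor cells. Imprinting of the single genes was mostly described in mouse and human, and that of DCN in the mouse. The probes did not distinguish the parental copies, so imprinting itself was not measured. In RNA from whole cultures, fewer cells of a type and less RNA per cell cannot be told apart.

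How far probes of 1 gene are separate measurements can be read from their sequences. Each probe had 60 bases, and positions are those of build EquCab1 in the files, without exon or UTR status, for which an annotation of EquCab1 would be needed. The 5 PLAGL1 probes lie on chromosome 31, each shifted by 1 base from the next, and all share 56 bases. The outermost of them are shown by their first 30 bases, with the shared bases in capitals.
PLAGL1 A_69_P008025, chr31:21952791-21952850, plus strand: cattCAGATGACTGGTTTTTGAAGCCTACT
PLAGL1 A_69_P008021, chr31:21952795-21952854, plus strand: CAGATGACTGGTTTTTGAAGCCTACTTGTC
These probes are therefore near-copies of 1 measurement. Among the 3 NNAT probes, a pair shared a stretch of 38 bases, which begins at the capitals in the 30 bases shown for each; their mapped positions span 283 and 1300 bases, more than the probe length.
NNAT A_69_P126481, chr22:27881991-27882273, plus strand: ttgcgagaagtgAGGTGTTCAGGTACTCCC
NNAT A_69_P126516, chr22:27880964-27882263, plus strand: ccgcgtgctgctgcAGGTGTTCAGGTACTC
PEG3 and GRB10, the genes past the test at their brightest probe, had 1 probe each, so no other probe can check them. Their first 30 bases are shown with no capitals.
PEG3 A_69_P048386, chr10:20554685-20554744, minus strand: aacgacagggctgatgacaagtacttcaaa
GRB10 A_69_P078371, chr4:20467920-20467979, minus strand: ttatgacctcagatttactcttggctgaag

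Each value below is a log2 ratio of treated over control, after background correction and normalisation within the array, so a positive value is a higher signal in treated cells. A probe was tested if at least 1 channel was well above background on every one of the 4 arrays. Of the 15 probes named by symbol, 10 were tested, from MEST, PLAGL1, GRB10 and DCN. PLAGL1 at 3 of its 5 probes and GRB10 were higher in treated cells at an adjusted p under 0.05, which makes 4 of 10 probes, and no probe was lower. One of the 4, PLAGL1 A_69_P008023, entered the test only through the treated channel, where it was the higher. With both channels required to be above background on all arrays, 3 of 9 probes were past the threshold. Across the whole array 24229 of 43603 gene probes were tested, and 17.1% of them were past that threshold, 9.49% higher and 7.59% lower. With 3 of the 4 calls from overlapping PLAGL1 probes, the probe count rests on few separate measurements. Taken by gene, at the brightest tested probe, 1 of 4 genes (GRB10) was past the threshold, and 2 of 6 (33.3%) with PEG3 and NDN, against 17.3% of all 8416 named genes. The median over these 6 genes was 0.07 on the log2 scale, beside −0.01 over all named genes.

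**Figure D1:**
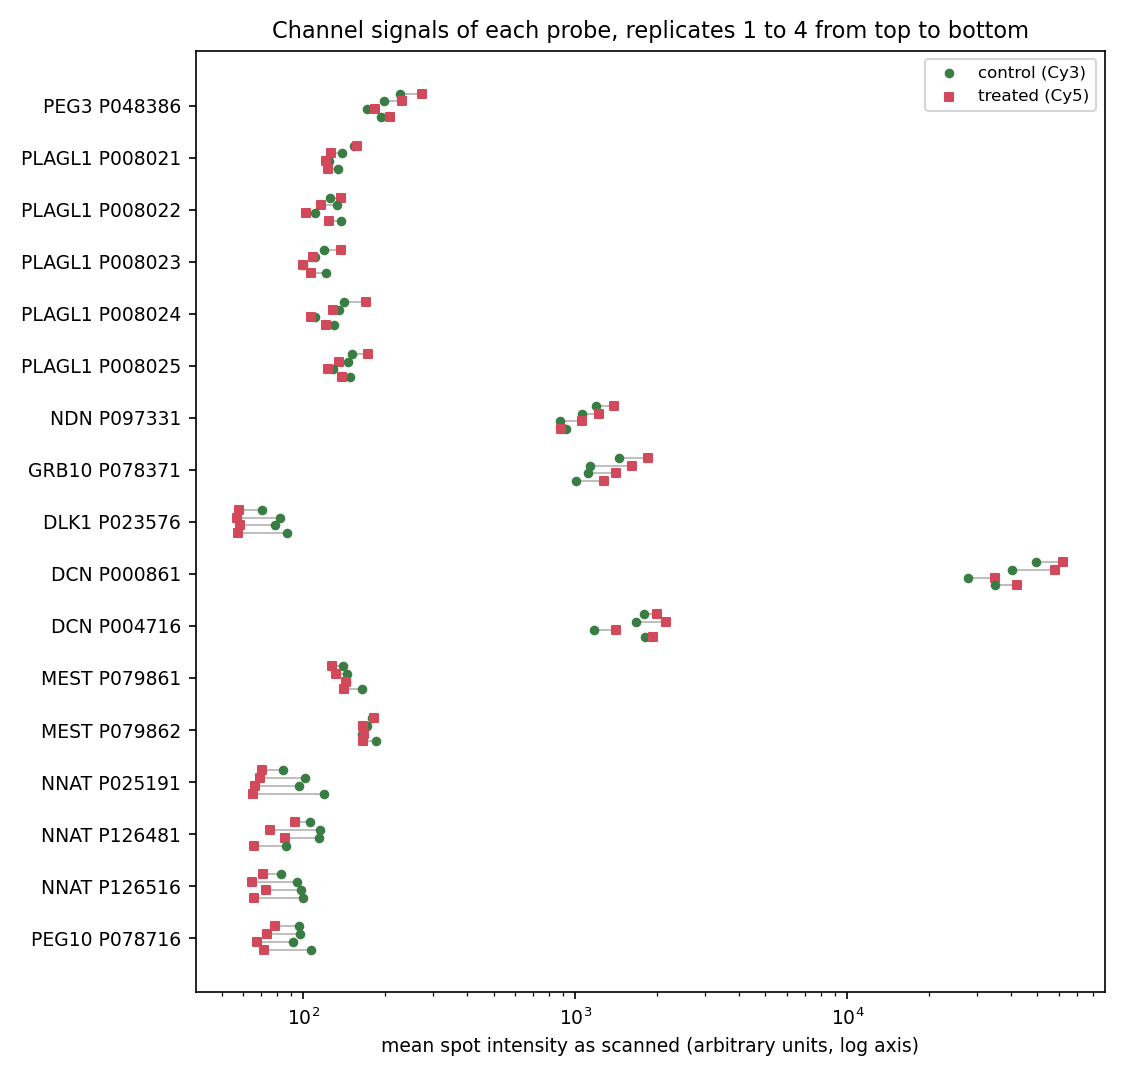
Mean spot intensity as scanned (log axis, arbitrary units) of each probe, with control (circles) and treated (squares) joined for each of the 4 arrays. GRB10, PEG3 and both DCN probes had the treated spot brighter on every array, although the DCN means were below 0 after normalisation. The dim DLK1, NNAT and PEG10 probes had the control spot brighter on every array.

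**Figure D2:**
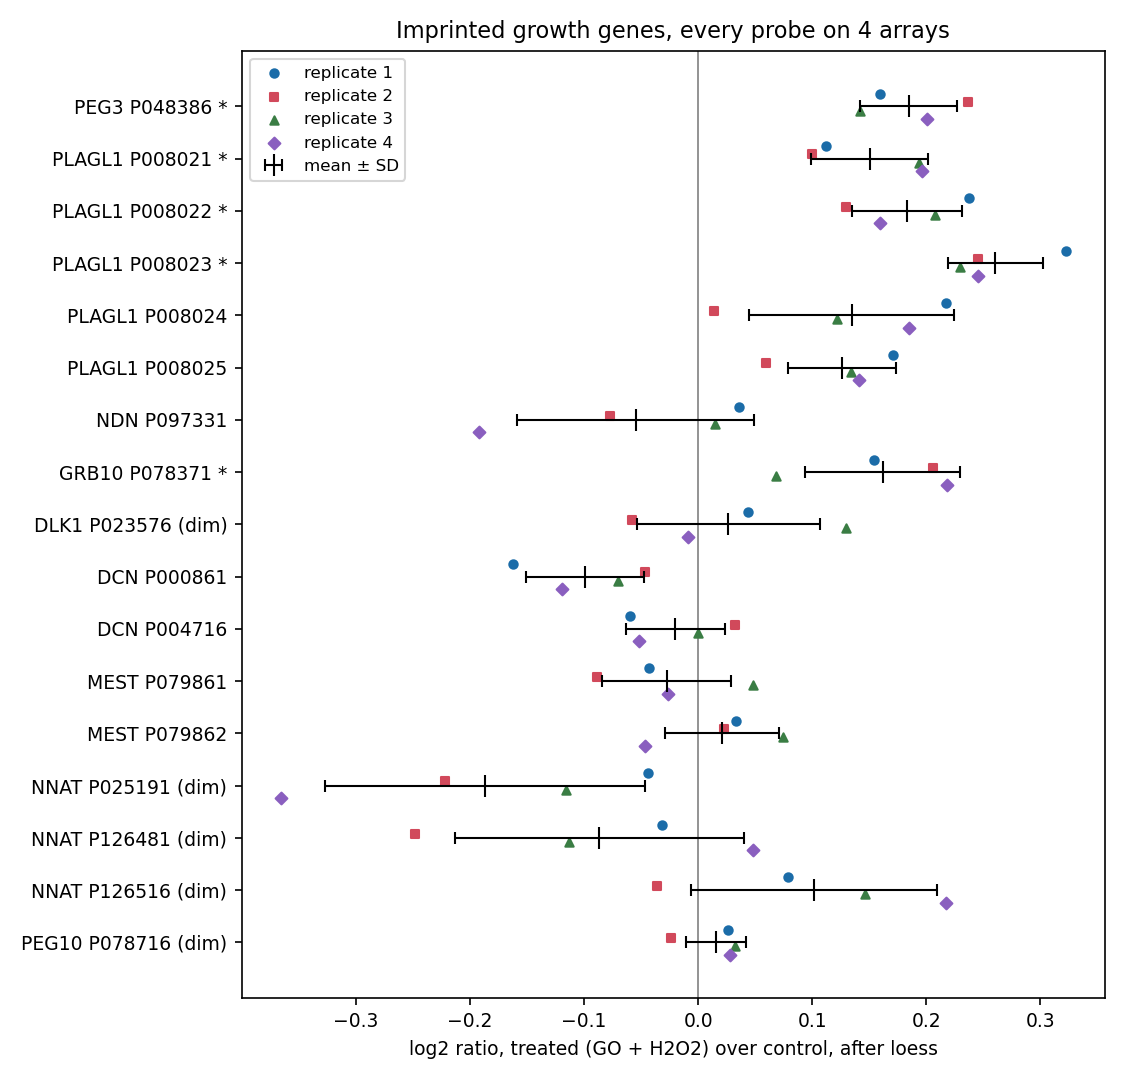
Log2 ratio of treated over control on each of the 4 arrays, with mean and SD, for every probe, named by gene and by the last part of its probe number. An asterisk marks an adjusted p under 0.05 and (dim) a probe that was not tested, whose ratios near background show no measured change. All 5 PLAGL1 probes, which are near-copies, PEG3 and GRB10 were above 0 on 4 arrays. The sign was the same on all arrays at 43.8% of all tested probes.

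The nuclear regulators come first. PEG3 encodes a zinc-finger protein known from p53 and TNF signalling and, as PW1, from progenitor cells of muscle. Its control signals were 226, 197, 171 and 194 on replicates 1 to 4, and its treated signals were 272, 231, 183 and 208. The treated channel was brighter on each array, although the ranges of the groups overlapped. The log2 ratios were 0.16, 0.24, 0.14 and 0.20, a mean of 0.18 ± 0.04 (SD, n = 4), or 1.14-fold. PEG3 was higher in treated cells (limma adjusted p = 0.030, 95% interval 0.09 to 0.28). A larger absolute ratio was measured for 19.1% of all tested probes. The call was lost without any 1 array, with adjusted p = 0.106, 0.0571, 0.0697 and 0.108 without replicates 1 to 4. On the whole array 2, 3898, 38 and 0 of 24229 probes were then called.

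PLAGL1, also called ZAC1, is a zinc-finger transcription factor that halts the cell cycle and, in the mouse, regulates other imprinted genes. Its signals were low, between 99.8 and 153 in the control channel and between 99.5 and 173 in the treated channel over the 5 probes. On replicate 1 the treated spot was the brighter at every probe, and on replicates 2 to 4 the control spot was the brighter at every probe. Probes too dim to test had median control signals of 79.9 to 96.7 and median treated signals of 59.95 to 63.1 over the arrays. After background correction and loess all 5 PLAGL1 probes were above 0 on all 4 arrays.

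Probe A_69_P008023 had control signals of 119, 111, 99.8 and 121 and treated signals of 137, 108, 99.5 and 107. Its log2 ratios were 0.32, 0.25, 0.23 and 0.25, a mean of 0.26 ± 0.04 (SD, n = 4). Its control spot was well above background on only 2 of the 4 arrays and its treated spot on 4, so it was selected through the channel in which it was higher, and its ratio and call (limma adjusted p = 0.017) are given as a description only. Probe A_69_P008022 gave 0.24, 0.13, 0.21 and 0.16, with a mean of 0.18 ± 0.05 and adjusted p = 0.031. Probe A_69_P008021 gave 0.11, 0.10, 0.19 and 0.20, with a mean of 0.15 ± 0.05 and adjusted p = 0.048. The other 2 probes missed the threshold. A_69_P008024 had a mean of 0.13 ± 0.09 (adjusted p = 0.092), and A_69_P008025, the brightest, had 0.13 ± 0.05 (adjusted p = 0.070, 95% interval 0.03 to 0.22). At that brightest probe Agilent's processed ratios were larger, 0.44, 0.14, 0.53 and 0.47 on the log2 scale, with a mean of 0.39 (adjusted p = 0.036). Without replicates 1, 3 or 4 none of the 5 was past the threshold under limma, when 2, 38 and 0 of the 24229 probes were called and 6484, 7309 and 6694 had an unadjusted p under 0.05.

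NDN encodes necdin, a MAGE family protein that binds E2F1 and p53, restrains cell division and is known to favour myoblast differentiation. Its control signals were 1186, 1058, 875 and 924, and its treated signals were 1382, 1218, 1060 and 885. The treated spot was brighter on replicates 1 to 3 before normalisation. The log2 ratios after normalisation were 0.04, −0.08, 0.01 and −0.19, with a mean of −0.05 ± 0.10 (SD, n = 4). This did not pass the test (limma adjusted p = 0.462), and the 95% interval ran from −0.17 to 0.07.

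GRB10 is an adaptor protein that binds the activated insulin and IGF1 receptors and dampens their signalling. Its control signals were 1451, 1135, 1112 and 1008, and its treated signals were 1853, 1619, 1409 and 1273. The treated spot was the brighter on each array, while the group ranges overlapped. Log2 ratios of 0.15, 0.21, 0.07 and 0.22 gave a mean of 0.16 ± 0.07 (SD, n = 4), or 1.12-fold. GRB10 was higher in treated cells (limma adjusted p = 0.047, 95% interval 0.06 to 0.26), close to the threshold. A larger absolute ratio was measured for 24.7% of tested probes. Without replicates 1, 2, 3 and 4 the adjusted p was 0.146, 0.0957, 0.0716 and 0.157, and with Agilent's processed signals it was 0.071. Of 24229 probes, 2, 3898, 38 and 0 were called without these replicates, and 3734 with processed signals.

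DLK1 is a membrane protein related to Notch ligands that holds back fat cell formation. Its probe was well above background on 0 of 4 arrays in both channels, with signals of 70.2 to 87.3 in the control and 57.0 to 58.2 in the treated channel, so no change could be tested. DLK2, its relative, was measured at −0.08 ± 0.05 (adjusted p = 0.205).

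DCN encodes decorin, a small leucine-rich proteoglycan that coats collagen fibrils and binds TGF-beta and myostatin. At its brighter probe, chr28:16816087-16816146 on the minus strand, control signals were 49508, 40221, 27834 and 34949 and treated signals were 62319, 58244, 34948 and 42113. The treated spot was brighter on all arrays as scanned. Before loess its log2 ratios were 0.33, 0.53, 0.33 and 0.27, below the medians of 0.52, 0.62, 0.41 and 0.38 for the 271 tested probes within 0.5 of its log2 signal. After loess they were −0.16, −0.05, −0.07 and −0.12, all below 0. Their mean of −0.10 ± 0.05 (SD, n = 4, 95% interval −0.20 to −0.0033) did not pass the test (limma adjusted p = 0.127). Median centring, which does not follow signal, gave a mean of 0.06, so the direction depends on the normalisation. The other DCN probe, designed on a partial coding sequence with no position in the files, had control signals of 1791, 1677, 1169 and 1800 and treated signals of 1992, 2156, 1408 and 1935. It gave −0.06, 0.03, 0.00 and −0.05, a mean of −0.02 ± 0.04 (adjusted p = 0.743).

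MEST, a hydrolase of the endoplasmic reticulum known to limit maturation of the WNT receptor LRP6, had a pair of abutting probes on chromosome 4. The brighter, chr4:84396463-84396522, had control signals of 164 to 185 and treated signals of 165 to 182, which overlapped widely. Its log2 ratios were 0.03, 0.02, 0.07 and −0.05, with a mean of 0.02 ± 0.05 (SD, n = 4, limma adjusted p = 0.737, 95% interval −0.07 to 0.12). The next 60 bases, chr4:84396523-84396582, had control signals of 140 to 164.4 and treated signals of 128 to 144. They gave ratios of −0.04, −0.09, 0.05 and −0.03, a mean of −0.03 ± 0.06 (adjusted p = 0.657). The probes disagreed in sign within their spread. LRP6 was measured at −0.03 ± 0.07 (adjusted p = 0.601).

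NNAT, a proteolipid of the endoplasmic reticulum that acts on the SERCA calcium pumps, was near background at its 3 probes. One of them, A_69_P126481, was well above background on 2 of 4 arrays in each channel, and the others on 0. Control signals over the 3 probes ran from 82.7 to 119 and treated signals from 64.5 to 92.7. PEG10, a gene derived from a retrotransposon and needed in the placenta, stood well above background on 1 of 4 arrays in the control and on 0 in the treated channel. Its control signals were 96.2, 97.0, 91.6 and 106 and its treated signals 78.4, 73.3, 67.5 and 71.5. For DLK1, NNAT and PEG10 no change is read from the ratios, since the probes were not above background on most arrays.

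The genes whose 4 ratios lay nearest those of the 2 called genes were named over 8415 other genes by Euclidean distance, as a description. For PEG3 they were EIF4G1 (distance 0.0329 on the log2 scale), DOK7 (0.0414) and C25H9orf78 (0.0440). For GRB10 they were PLGRKT (0.0151), SBF1 (0.0363) and MRPL36 (0.0384).

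A list of 60 other genes imprinted in mouse or human sets these values in context. Of the 38 with a probe, 21 were tested, and 6 were higher and 0 lower in treated cells (28.6%, beside 17.3% of all named genes). The median of the 21 was 0.06. IGF2, the fetal growth factor, was the highest of the 21 at 0.57 ± 0.10 (SD, n = 4, limma adjusted p = 0.0097), and H19, the non-coding RNA beside it, was at 0.36 ± 0.11 (adjusted p = 0.016). The second H19 probe disagreed, with ratios of 0.22, −0.35, −0.38 and 0.85. The others were BLCAP (0.40 ± 0.14), INPP5F (0.18 ± 0.05), SLC22A18 (0.29 ± 0.18) and CD81 (0.35 ± 0.23), the last of which lies outside the rule for named genes. SLC22A18 and CD81 lie in the same cluster as IGF2 and H19, so the 6 called genes do not all come from separate clusters. In that cluster PHLDA2 (0.09 ± 0.08), TSSC4 (−0.02 ± 0.09) and NAP1L4 (−0.05 ± 0.03) were not past the threshold. Without replicates 1, 3 or 4 none of the 21 was past the threshold under limma, and without replicate 2 there were 5. Of all 24229 probes, 2, 38 and 0 were called without replicates 1, 3 and 4, and 3898 (16.1%) without replicate 2.

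**Figure D3:**
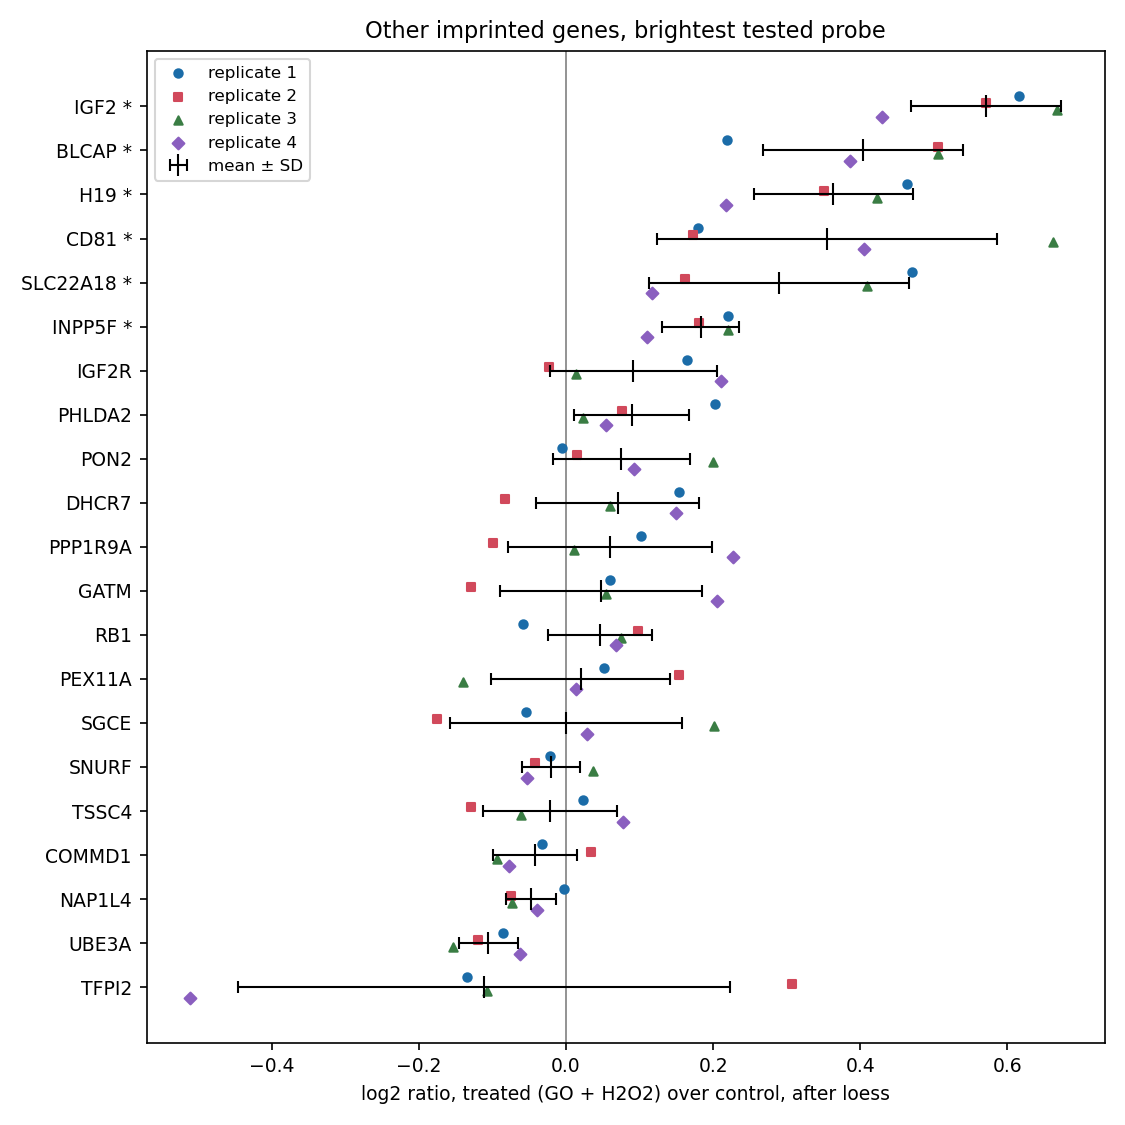
Log2 ratio of treated over control on each of the 4 arrays, with mean and SD, for the 21 tested genes of the list of other imprinted genes at their brightest probe. An asterisk marks an adjusted p under 0.05. The 6 marked genes were above 0 on 4 arrays and stand at the top.

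Imprinted genes share clusters, so genes beside the members were looked up after their values had been seen. NNAT lies next to BLCAP, and in human and mouse within an intron of it. The 5 overlapping BLCAP probes, chr22:27878299-27878378 in all, were all higher in treated cells, with means of 0.32 to 0.40 (adjusted p 0.017 to 0.029), while NNAT was near background. Beside PEG10, SGCE (epsilon-sarcoglycan) had ratios of −0.05, −0.18, 0.20 and 0.03, a mean of 0.00 ± 0.16 (adjusted p = 0.999). Further genes of that cluster were PPP1R9A at 0.06 ± 0.14 (adjusted p = 0.492), PON2 at 0.08 ± 0.09 (adjusted p = 0.295) and TFPI2 at −0.11 ± 0.33 (adjusted p = 0.526), none past the threshold.

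In the cluster of NDN, MKRN3 was well above background on 0 of 4 arrays at its 5 probes. SNURF was measured at −0.02 ± 0.04 (adjusted p = 0.738). UBE3A, a ubiquitin ligase, was below 0 on all 4 arrays at both its probes, at −0.12 ± 0.03 (adjusted p = 0.075) and −0.11 ± 0.04 (adjusted p = 0.103), and did not pass the test. ZIM2 beside PEG3, DDC beside GRB10, DIO3 near DLK1 and CPA4 near MEST were well above background on 0 of 4 arrays at every probe.

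The chromosomal neighbours of DCN are the related proteoglycans LUM, KERA and EPYC. LUM, lumican, was lower in treated cells, with log2 ratios of −0.55, −0.34, −0.36 and −0.47 at its brightest probe, a mean of −0.43 ± 0.10 (SD, n = 4, limma adjusted p = 0.013). Its 5 further probes, which overlap, had means from −0.40 to −0.33 and adjusted p from 0.022 to 0.031. Replicate 3 was nearest 0 at each of those 5. KERA was measured at −0.11 ± 0.15 (adjusted p = 0.247), and EPYC was near background.

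Relatives and binding partners of the members were a list of 50 genes, of which 33 were tested. In it, 2 were higher and 3 lower in treated cells (15.2%, beside 17.3% of named genes), and the median was −0.03. ATP2A1, the SERCA pump of fast muscle, rose by 0.47 ± 0.11 (adjusted p = 0.012) and TGFB1, a ligand that decorin binds, by 0.15 ± 0.04 (adjusted p = 0.049). Besides LUM, the partners of GRB10 that fell were NEDD4, a ubiquitin ligase, at −0.27 ± 0.11 (adjusted p = 0.025), and GIGYF2, a translation repressor, at −0.19 ± 0.10 (adjusted p = 0.045). GIGYF2 had 1 of its 4 probes above 0. IGF1R, the receptor that GRB10 binds, was measured at 0.02 ± 0.10 (adjusted p = 0.767). The study reports igf1r as higher in treated cells by microarray. The 1 IGF1R probe tested here, with mean signals of 166 in the control and 157 in the treated channel, did not show this. Whether the study used another probe was not examined. Without replicates 1, 3 or 4 none of the 33 was past the threshold, and without replicate 2 there were 6. The whole array then had 2, 38 and 0 of 24229 probes called, and 3898 (16.1%) without replicate 2.

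The labelled cell type was checked against markers. Of 14 myogenic markers 11 had a probe, all 11 were well above background on every array, and 7 were higher in treated cells (MYOG, MYF6, MEF2C, MYH3, MYH8, CKM and NCAM1), or 63.6% beside 17.3% of all named genes. Their summed signals as scanned were 97041 to 144589 in the control and 163532 to 251065 in the treated channel. Bright probes carried these sums, such as MYH3 with means of 51190 and 85861. The 405 tested probes with a mean log2 signal above 16 kept a median log2 ratio of 0.14 after normalisation, beside 0.0012 for the others. PAX7, CDH15 and ITGA7 had no probe by symbol. Of 8 fibroblast markers with a probe, 7 were tested. PDGFRA was not, as it was well above background on only 2 of 4 arrays in the control and 1 in the treated channel. THY1 was higher and LUM and VIM were lower, or 42.9% of the 7 beside 17.3% of all named genes. The sums as scanned were 275982 to 395907 in the control and 459203 to 545066 in the treated channel. Neither these sums nor the myogenic ones are normalised between the dyes, so they do not compare treated with control cells. VIM, for example, had mean signals of 64034.5 in the control and 78852.7 in the treated channel, but a log2 ratio of −0.21 after normalisation. None of 7 adipocyte or 5 endothelial markers was tested, with PPARG, FABP4, ADIPOQ, CIDEC, PECAM1, CDH5, VWF and KDR above background on no array. Of 4 leukocyte markers 2 were tested, of which CD14 was lower (−0.17, limma adjusted p = 0.038) and CD68 was at 0.00, or 50% called. CD3E and CSF1R were above background on no array. The part of these markers in the results for PEG3, PLAGL1, GRB10 and DCN was not tested.

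Across the 16 alternative settings the means of PEG3, GRB10 and PLAGL1 stayed above 0, while their calls did not hold. In several settings few of the 24229 probes were called at all. These were 12 with median centring, 5 with the methods' t-test, and 2, 38 and 0 without replicates 1, 3 and 4. The 1.3-fold limit left 345, and no replicate block left 600. Without replicate 2, 3898 were called, but none of these genes was. Settings that change only the test, the threshold or the filter on dim probes keep the mean, so they cannot check the direction. Neither can the mean over probes for PEG3 and GRB10, with 1 probe each. The remaining settings reprocess or leave out some of the same 4 arrays. PEG3 was past the threshold in 8 of 16, with means of 0.17 to 0.32. GRB10 was past it in 4 of 16, with means of 0.14 to 0.19. PLAGL1 was past it in 3 of 16, with means of 0.10 to 0.39. Among these 3 is the mean over all 5 of its probes (0.17), which takes in A_69_P008023. The other settings used its brightest probe. In the values as reported, none of these 3 genes reached a 1.3-fold change, the further limit in the study's methods. With Agilent's processed signals the brightest PLAGL1 probe, at 0.39 on the log2 scale, did.

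**Figure D4:**
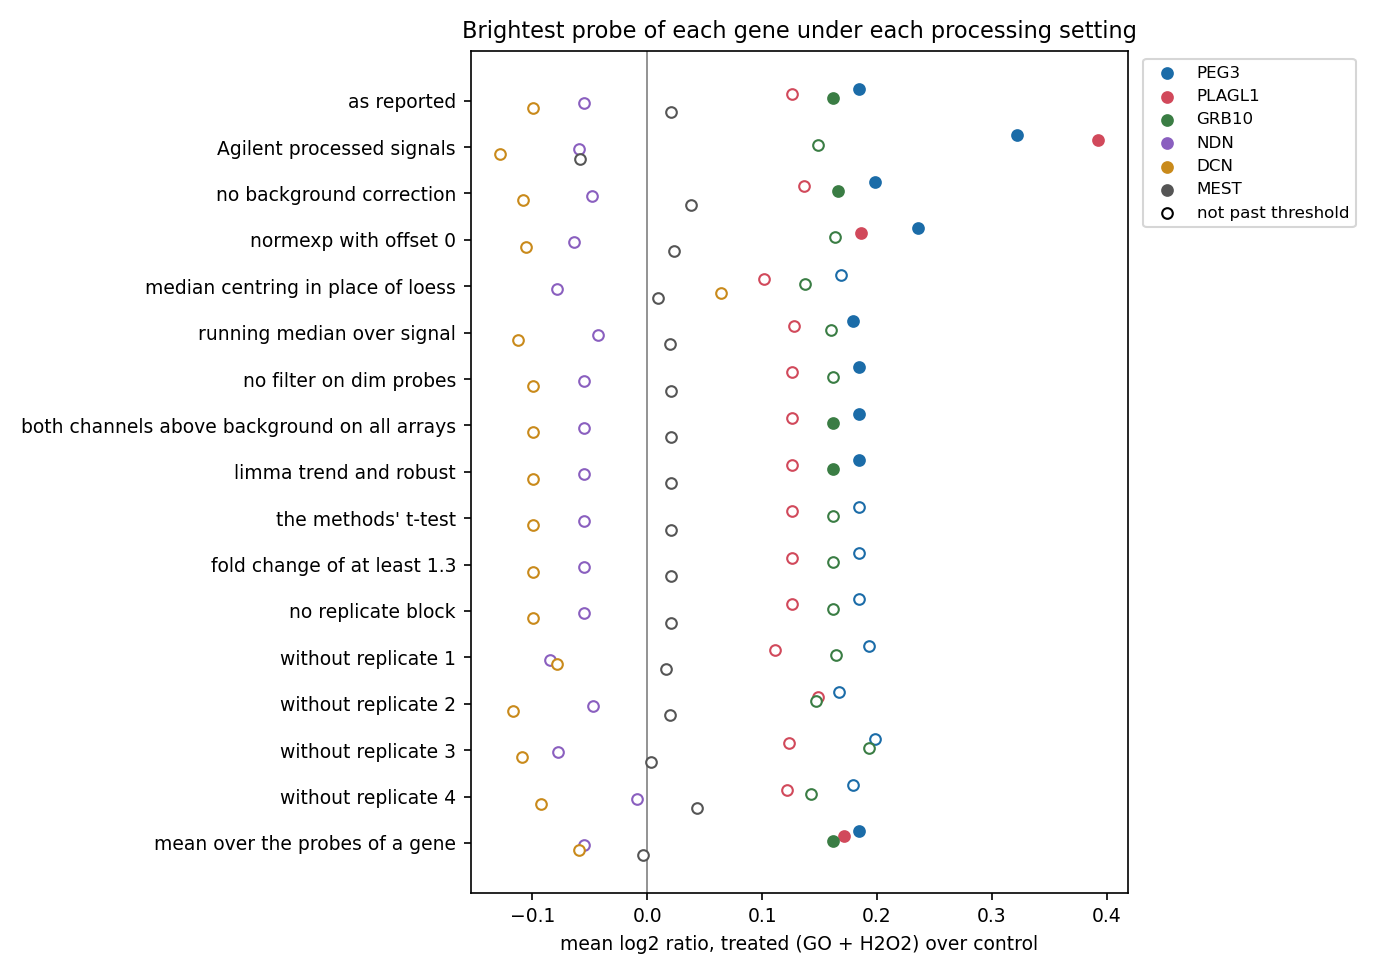
Mean log2 ratio of the brightest tested probe of 6 genes under each processing setting, filled where past the threshold. The setting of the mean over probes takes all tested probes of a gene instead. PEG3, PLAGL1 and GRB10 stay above 0 in every setting, NDN below 0, and DCN crosses 0 with median centring. Settings that change only the test, the threshold or the filter on dim probes leave the mean as it was.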

How the data were processed

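The members and gene lists were chosen with earlier results of these data known. Per the file headers, spot intensities came from Agilent Feature Extraction 10.10.1.1. The deposited log10 ratio (processed red over green) and the identical series matrix (largest difference 0, column medians 0) served as an alternative. Mean intensities were corrected with normexp (offset 50) against background medians and loess-normalised within arrays in limma 3.58.1 (R 4.3.3), with control spots at weight 0. Outlier spots were left out, and spots of a probe averaged. Before loess the median log2 ratio over all probes was 0.68, 0.12, 0.43 and −0.01 on replicates 1 to 4. Mean log2 ratios were tested against 0 (lmFit, eBayes, two-sided, Benjamini-Hochberg over 24229 probes). In both channels 54.9% to 61.4% of spots were above background, and 0 member spots were saturated. Array pairs correlated at r = 0.174 to 0.697 across probes. Of 1735 LOC names, 1107 matched a RefSeq gene ID (assembly TB-T2T). Named were all member probes, IGF2, up to 5 called genes of each further list with the smallest adjusted p, and for each member called at its brightest probe the 3 nearest genes. Outside this rule, CD81, DLK2, LRP6, IGF1R, the genes beside members or IGF2, and the cell type markers were also named. The fit was tested on simulated data.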

Additional observations from a re-analysis of the deposited data

Results flagged for a closer look

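Among 67 sets of 4 array values, of all member probes and of the further genes named, 7 held a value set apart from its group, where chance marks about 1 set in 20. PLAGL1 probe A_69_P008023 had its value of 0.32 on replicate 1 apart from 0.23 to 0.25 on the others. PEG10 had its value of −0.024 on replicate 2 apart from 0.03 on each of the others, at a probe near background whose ratio shows no measured change. On replicate 3, 4 overlapping LUM probes, which are near-copies of 1 measurement, stood nearer 0, at −0.065, −0.12, −0.055 and −0.097, than on the other arrays, where they lay between −0.51 and −0.41. CD14 had its value of −0.26 on replicate 1 apart from −0.16 to −0.14 on the others.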

How the results depend on the processing

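Having 4 arrays limits the precision, and signals near background limit PLAGL1, DLK1, NNAT and PEG10. Signals were also low for MEST (128 to 185) and PEG3 (171 to 272), whose mean moved from 0.18 to 0.32 with processed signals. Counts are of member probes (4), member genes at the brightest probe (1), other imprinted genes (6), and relatives and partners (5), in this order. Median centring gave 0, 0, 0 and 0, with 12 of 24229 probes called on the whole array (1571 at an unadjusted p under 0.05), and the methods' t-test 0, 0, 0 and 0, with 5 called (6930 unadjusted). The 1.3-fold limit left 0, 0, 2 and 2, with 345 of 24229 probes (1.42%) on the whole array. The running median gave 2 member probes and 0 member genes, as did testing without the filter on dim probes. Of all probes tested, 15.3% and 12.2% were called in these settings. Requiring both channels above background gave 3 member probes, beside 16.6% of all probes tested. Normexp with offset 0 gave 3 relatives and partners, beside 14% of all probes tested. The mean over probes gave 2 member genes, beside 21.9% of all named genes. Leaving out 1 array gave 0 to 2, 0 to 0, 0 to 5 and 0 to 6. On the whole array that left 2, 3898, 38 and 0 probes without replicates 1 to 4 (6694 unadjusted without replicate 4). The channels are paired by sharing an array. With no replicate block, treating channels as separate samples, the counts were 1, 0, 3 and 2, and PEG3 had adjusted p = 0.0927 and GRB10 0.337. On the whole array 600 of 24229 probes (2.48%) were then called. Directions reversed for MEST with processed signals (−0.058) and the mean over probes (−0.0034) and for DCN with median centring (0.065), none of them called. Of 96 gene values under alternatives, 70 kept side and direction. The cause of the other shifts was not tested.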
